A study of Homo sapiens with 18 samples.

Results

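Unstimulated MEC2 cells were compared with unstimulated PCL12 cells, both of them cell lines derived from chronic lymphocytic leukemia (CLL), using 6 of the 18 libraries of the series. The 13695 genes described here had a mean of at least 1 CPM (counts per 1000000 counts of the library, after scaling for composition) over these 6 libraries, out of 31872 genes tested and 56609 gene symbols listed. MEC2 and PCL12 each gave 3 unstimulated libraries of total RNA. The other libraries came from the same lines after 4 h with 2.5 μg/ml CpG-ODN2006, an oligonucleotide that activates the receptor TLR9, and from HG3, another CLL line, with and without it. Per the study's methods all these lines carry Epstein-Barr virus (EBV) and were grown in RPMI medium with fetal bovine serum, so neither group is free of the virus. Each line stands for the leukemia of 1 donor, and the labels do not say whether the 3 libraries of a line came from separate cultures, so the P values measure the spread between these libraries.

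CLL is an accumulation of mature B lymphocytes that all carry the same B-cell receptor, an immunoglobulin whose rearranged heavy and light chain genes mark the clone. Signals through this receptor, through Toll-like receptors and through contact with neighbouring cells in lymph nodes keep CLL cells alive, and established lines replace some of these signals by EBV genes. Lines from different donors differ in their clone, in the chromosomes they gained or lost and in which genes are silenced.

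The 6 libraries held between 23586794 and 42127737 counts, and mitochondrial genes took 3.58% to 8.20% of them. A sum of 6 B-cell markers lay between 2633 and 3270 CPM in MEC2 and between 2339 and 2833 CPM in PCL12. The summed T-cell markers were between 0.684 and 2.40 CPM, with CD3D and CD3G at 0 in all 6 libraries and CD3E at up to 2.37 CPM. Summed myeloid markers were between 0.499 and 0.898 CPM, and summed NK-cell markers between 3.53 and 8.12 CPM. A sum of 3 plasma cell markers was 74.5 to 74.7 CPM in MEC2 and 107 to 156 CPM in PCL12, and 4 epithelial markers summed to 6.48 to 32.9 CPM over the 6 libraries.

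The libraries labelled PCL12 were not alike. Genes of MEC2 alone were chosen on the CpG-stimulated libraries, where none of the 3 MEC2 libraries was under 20 CPM and PCL12 replicate 1 did not exceed 10% of their mean, and then read in the unstimulated libraries. The 48 such genes had a median of 2.56% of their mean MEC2 level in PCL12 replicate 1, 29.6% in replicate 2 and 31.2% in replicate 3. The 44 genes of PCL12 alone, chosen the other way, were at a median of 75.3% and 67.4% of their replicate 1 level in replicates 2 and 3, and at 1.14% to 3.599% in the MEC2 libraries. MEC2 transcripts were thus present in PCL12 replicates 2 and 3, and in bulk RNA a share of MEC2 cells, of MEC2 RNA or of MEC2 reads cannot be told apart. The Euclidean distance between libraries, in log2 CPM over all 13695 genes, gave the same order: it was 165 to 182 from MEC2 to PCL12 replicate 1 and 115 to 134 from MEC2 to replicates 2 and 3, beside 69.9 to 108 within MEC2. MEC2 replicate 3 was the farthest from the other MEC2 libraries, at 89.7 and 108, and held the MEC2 genes at a median of 91.2%, the lowest of them at 28.6%. Differences are therefore given against the mean of the 3 PCL12 libraries, and calls were also made against PCL12 replicate 1. Of the genes named as called by the 3 libraries, those that missed the threshold against replicate 1 in edgeR, the main test, are pointed out.

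**Figure D1:**
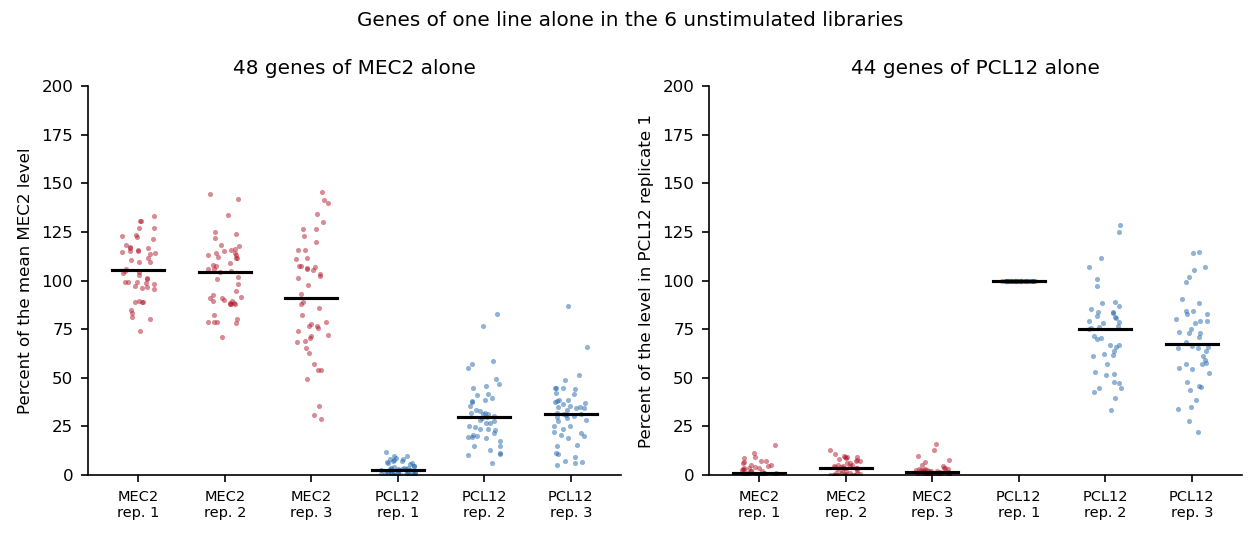
Level of 48 genes of MEC2 alone (left, percent of the mean unstimulated MEC2 level) and of 44 genes of PCL12 alone (right, percent of the level in PCL12 replicate 1) in each unstimulated library; 1 dot is 1 gene and the bar is the median. MEC2 genes sit near 0 in PCL12 replicate 1 and at medians of 29.6% and 31.2% in replicates 2 and 3.

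Against the 3 PCL12 libraries, 149 genes were higher in MEC2 (1.09% of the 13695) and 437 were higher in PCL12 (3.19%), by an adjusted p under 0.05 and |log2FC| ≥ 1 in edgeR's quasi-likelihood test. The log2FC is given as MEC2 minus PCL12 throughout. Against the 3 libraries the differences had a median log2FC of -2.69 over the 437 genes and of 1.93 over the 149, and a log2FC of -3 or less in 199 genes and of 3 or more in 19, although 57 of the same 149 genes reached 3 against PCL12 replicate 1. Against PCL12 replicate 1 alone the counts became 338 genes higher in MEC2 (2.47%) and 387 higher in PCL12 (2.83%). Of these, 87 and 346 were called both ways, 251 and 41 with replicate 1 only and 62 and 91 with the 3 libraries only, and 0 were called in opposite directions. The 149 genes had a median log2FC of 2.51 against replicate 1, and the 437 of -2.92. Over all 13695 genes the median log2FC was 0.01, and 0.05 against replicate 1. All 3 MEC2 libraries lay above all 3 PCL12 libraries in 1851 genes (13.5%) and below them in 2140 genes (15.6%), among them all 149 and all 437 called genes. X and Y genes (3 and 11 of the called) were left out when genes were ranked or named.

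**Figure D2:**
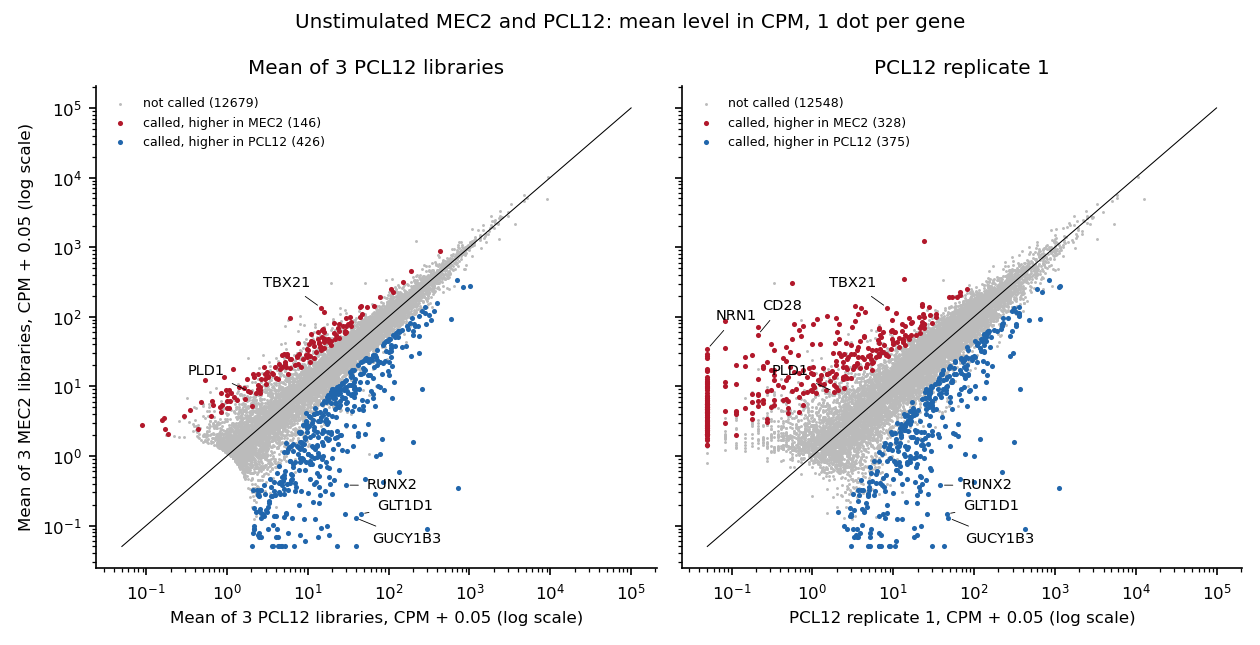
Mean MEC2 level against the mean of the 3 PCL12 libraries (left) and against PCL12 replicate 1 (right), in CPM plus 0.05 on log axes, without X and Y genes; 1 dot is 1 gene, and the colour marks the genes called against the PCL12 libraries of that panel. On the right, many of the genes called higher in MEC2 reach levels near 0 in PCL12 replicate 1.

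The gene most firmly higher in PCL12 was GUCY1B3 (now GUCY1B1, chr4:155758992-155807811 on GRCh38, plus strand), the beta subunit of the soluble guanylate cyclase that makes cGMP in response to nitric oxide. It had 0, 0.122 and 0.114 CPM in MEC2 and 47.9, 33.8 and 35.3 CPM in PCL12, with a log2FC of -8.96 ± 0.54 (SE, adjusted p = 1.78e-10). GLT1D1 (chr12:128853427-128984968, plus strand), named for a glycosyltransferase domain, had 0, 0.204 and 0.0855 CPM in MEC2 and 45.5, 50.7 and 38.4 CPM in PCL12 (log2FC -8.96 ± 0.58, adjusted p = 1.78e-10). For both genes the PCL12 libraries lay far above every MEC2 library. GUCY1B3 was lower in PCL12 replicates 2 and 3 than in replicate 1, and GLT1D1 was highest in replicate 2. RUNX2 (chr6:45328157-45664349, plus strand), the RUNX family factor best known from bone formation, measured 0.0860, 0.449 and 0.456 CPM in MEC2 and 38.2, 18.1 and 32.3 CPM in PCL12 (log2FC -6.49 ± 0.58, adjusted p = 8.23e-08). HG3 had 182, 83.5 and 230 CPM of GUCY1B3 and at most 0.220 CPM of RUNX2, so it lay on the PCL12 side for the former and on the MEC2 side for the latter.

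The remaining genes among the 12 with the smallest P values towards PCL12 had varied roles. TRPM2, a calcium-permeable cation channel gated by ADP-ribose, was at 6.82, 8.33 and 5.07 CPM in MEC2 and at 133, 108 and 84.9 CPM in PCL12 (log2FC -4.01 ± 0.33, adjusted p = 2.01e-08). CERS6, a ceramide synthase, was at 0.487, 1.96 and 0.570 CPM against 76.1, 74.0 and 86.8 CPM (log2FC -6.34, adjusted p = 1.87e-07). PPP1R9A, neurabin, had 2 counts in MEC2 in all, and its counts in PCL12 were 841 times those in MEC2 after scaling for depth, with a 95% counting interval of 233 to 6953. The ranges of these genes did not overlap. EMILIN1, an elastin-associated matrix protein, SPIRE1, an actin nucleator, PITPNC1, a phosphatidylinositol transfer protein, and STC2, a secreted glycoprotein, had log2FC of -4.75, -4.76, -3.05 and -3.73, with adjusted p of 8.23e-08, 1.27e-07, 1.64e-07 and 1.87e-07. APOL1, an apolipoprotein of innate immunity, was 6.94-fold higher in PCL12 (14.6 ± 2.55 against 101 ± 38.7 CPM, SD, n = 3 each). CX3CL1, the membrane-bound chemokine fractalkine, was 121-fold higher (0.422 ± 0.274 against 51.0 ± 18.5 CPM). All 12 were also called against PCL12 replicate 1, and all 12 kept their call when any 1 of the 6 libraries was left out.

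Among the 12 genes with the smallest P values towards MEC2 were a pair of T-box factors. TBX15 (chr1:118883046-118989556, minus strand), known from skeletal development, had 15.8, 17.1 and 3.45 CPM in MEC2 and 0.417, 0.285 and 0.766 CPM in PCL12 (log2FC 4.59 ± 0.62, adjusted p = 4.81e-05). TBX21 (chr17:47733236-47746122, plus strand), the factor T-bet of Th1 and NK cells and of a subset of B cells, had 165, 167 and 72.8 CPM in MEC2 and 8.34, 20.4 and 14.6 CPM in PCL12 (log2FC 3.22 ± 0.43, adjusted p = 8.74e-05). In both, MEC2 replicate 3 was the lowest of its group and still above every PCL12 library. For TBX21, PCL12 replicate 1 was below replicates 2 and 3 and the log2FC against it was 4.02, whereas for TBX15 replicate 2 was the lowest PCL12 library. HG3 expressed TBX15 at 18.9, 7.89 and 13.9 CPM and TBX21 at 8.15, 7.84 and 4.45 CPM.

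A cytokine was also among the 12. TNF, the inflammatory cytokine, was at 81.2, 66.8 and 56.1 CPM against 21.4, 24.9 and 23.7 CPM (log2FC 1.54 ± 0.27, adjusted p = 0.00121). The groups did not overlap. PLD1, a phospholipase D, ARHGAP18, a GTPase-activating protein, PHLPP1, a phosphatase that acts on AKT, and ADD3, an adducin of the membrane skeleton, had log2FC of 2.15, 1.94, 2.00 and 2.19. C14orf105 (now CCDC198) had 3.96, PIEZO2, a mechanosensitive channel, 1.84, PLAC8 1.60 and SERINC2 2.70, and the adjusted p of these 8 genes lay between 0.000125 and 0.00124. Against replicate 1 the log2FC of PLD1, ARHGAP18, PHLPP1 and ADD3 were 2.21, 1.99, 2.23 and 2.56. Those of C14orf105, PIEZO2 and PLAC8 were 4.93, 2.29 and 2.06. SERINC2 was the exception among the 12 in that edgeR did not call it against PCL12 replicate 1 (log2FC 2.44). With limma-voom, TBX15, PLD1, C14orf105, ADD3 and TNF also missed the threshold against replicate 1. All 12 kept their call when any 1 of the 6 libraries was left out.

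**Figure D3:**
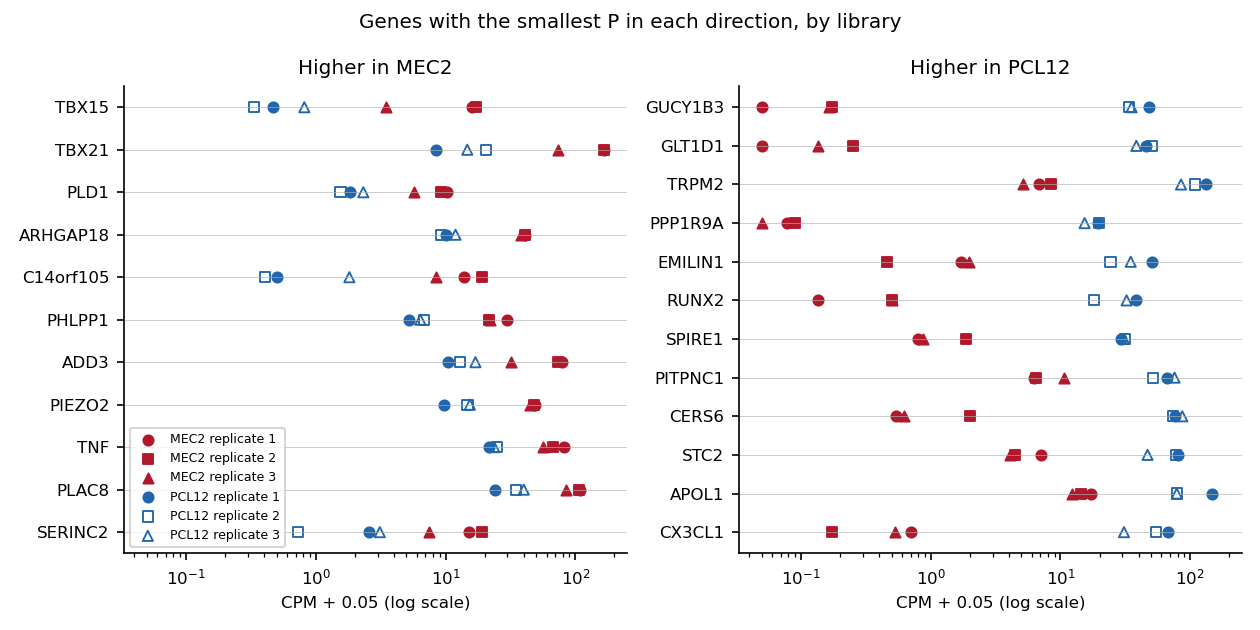
Level in each library, in CPM plus 0.05 on a log axis, of genes among the 12 with the smallest P values towards MEC2 (left, 11 shown) and towards PCL12 (right, 12 shown); the shape marks the replicate and filled blue circles are PCL12 replicate 1. The 23 genes were chosen for not overlapping between the lines, and MEC2 replicate 3 is the lowest MEC2 library in 10 of the 11 genes on the left.

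Some genes were on in 1 line and silent in the other, taken as at least 20 CPM in every MEC2 library with at most 0.5 CPM in PCL12 replicate 1, or the reverse. In the direction of PCL12 there were 8 such genes: CPA4, GUCY1B3, GLT1D1, GPAT2, RUNX2, DDX43, EVC and KCTD15. These 8 were chosen for this difference as well. GPAT2, a mitochondrial acyltransferase mainly of testis, had 42.2, 35.2 and 41.8 CPM in PCL12 and no read in any MEC2 library, at least 406-fold higher against a floor of 3 counts per library. DDX43, a helicase counted among the cancer-testis antigens, had 29.9, 26.5 and 13.1 CPM in PCL12 and no read in MEC2, at least 237-fold higher. CPA4, a carboxypeptidase, was at 0.115, 0.490 and 0.0855 CPM in MEC2 and at 82.9, 65.7 and 54.9 CPM in PCL12 (log2FC -8.31). KCTD15 was 61.7-fold higher in PCL12. None of the 3 PCL12 libraries overlapped with MEC2 in these genes.

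In the direction of MEC2 there were 13 genes: USP2, TMPRSS3, T, CD28, STARD13, ARHGAP10, NRN1, TANC1, EFNA5, HLA-DQB2, IRAK3, TNFRSF19 and SMAD1. Since the low level in replicate 1 chose these genes, their values are a description, and no p is given. CD28 (chr2:203706475-203738912, plus strand), the costimulatory receptor of T cells, had 56.1, 48.9 and 58.4 CPM in MEC2 and 0.160, 17.2 and 24.5 CPM in PCL12. Its log2FC was 1.96 against the 3 libraries and 8.38 against replicate 1. PCL12 replicates 2 and 3 lay between the lines, as they did for each of these 13 genes. Beside CD28, the T-cell genes CD3D and CD3G had no read, and CD3E was at 1.29, 1.18 and 0.0570 CPM in MEC2 and at 2.37, 0.642 and 0.673 CPM in PCL12. T, the mesoderm factor brachyury (now TBXT), had 70.8, 61.6 and 78.3 CPM in MEC2, 0.160, 18.7 and 17.8 CPM in PCL12 and 147, 179 and 155 CPM in HG3, with a log2FC of 2.52 and of 8.74 against replicate 1. NRN1, the membrane-anchored neuritin, had 33.8, 37.9 and 30.3 CPM in MEC2, 0 reads in PCL12 replicate 1 and 7.31 and 8.66 CPM in replicates 2 and 3, and was at least 354-fold higher in MEC2 than in replicate 1. USP2, a ubiquitin-specific protease, had 405, 358 and 150 CPM in MEC2 and 0.289, 34.5 and 22.6 CPM in PCL12. TMPRSS3, a serine protease, had 101, 98.1 and 61.9 CPM in MEC2 and 1 count in PCL12 replicate 1, a ratio of 2669 with a counting interval of 479 to 105448, and 42.9 and 18.97 CPM in replicates 2 and 3.

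The 250 bases before the RefSeq start of 6 such genes are given here, since these are genes, or neighbours of genes, with few or no reads in a whole line or in PCL12 replicate 1. EVC and EVC2, a head-to-head pair of the Hedgehog pathway, are shown together because both were near 0 in MEC2. EVC had 0.0573, 0 and 0.228 CPM in MEC2 and 26.1, 32.6 and 26.5 CPM in PCL12, and EVC2 had 0 in all MEC2 libraries and 9.14, 7.45 and 3.62 CPM in PCL12. Their RefSeq starts lie 2642 bases apart. EFNA5, an ephrin ligand, had 28.9, 26.0 and 32.3 CPM in MEC2, 0 reads in PCL12 replicate 1 and 5.78 and 8.59 CPM in replicates 2 and 3. The stretches are from GRCh38.p14 and run 5′ to 3′ on the strand of the gene: chr4:5710951-5711200 plus strand for EVC, chr4:5708560-5708809 minus strand for EVC2, chr2:96036266-96036515 minus strand for GPAT2, chr6:73394578-73394827 plus strand for DDX43, chr6:6004026-6004275 minus strand for NRN1 and chr5:107670938-107671187 minus strand for EFNA5. Capitals mark CG, the dinucleotide that DNA methylation acts on, which reads the same on both strands.
EVC: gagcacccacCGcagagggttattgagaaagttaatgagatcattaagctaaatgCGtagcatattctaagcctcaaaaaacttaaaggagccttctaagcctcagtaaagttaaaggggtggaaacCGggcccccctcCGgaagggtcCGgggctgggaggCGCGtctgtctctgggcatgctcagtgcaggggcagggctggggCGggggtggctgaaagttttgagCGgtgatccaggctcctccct
EVC2: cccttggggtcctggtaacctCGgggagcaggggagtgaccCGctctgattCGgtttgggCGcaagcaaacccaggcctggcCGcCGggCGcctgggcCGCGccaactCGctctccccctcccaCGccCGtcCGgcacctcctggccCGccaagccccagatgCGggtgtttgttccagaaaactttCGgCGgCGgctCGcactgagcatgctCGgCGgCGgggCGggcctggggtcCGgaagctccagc
GPAT2: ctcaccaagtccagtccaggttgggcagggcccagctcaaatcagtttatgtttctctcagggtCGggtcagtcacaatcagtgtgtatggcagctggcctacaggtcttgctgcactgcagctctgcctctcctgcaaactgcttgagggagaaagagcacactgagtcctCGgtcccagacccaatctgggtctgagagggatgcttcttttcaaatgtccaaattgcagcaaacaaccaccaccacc
DDX43: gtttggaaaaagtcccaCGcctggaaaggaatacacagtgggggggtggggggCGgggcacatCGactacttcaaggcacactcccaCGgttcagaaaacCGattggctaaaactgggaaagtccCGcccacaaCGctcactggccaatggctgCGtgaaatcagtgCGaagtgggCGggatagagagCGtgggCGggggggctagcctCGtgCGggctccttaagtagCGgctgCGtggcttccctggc
NRN1: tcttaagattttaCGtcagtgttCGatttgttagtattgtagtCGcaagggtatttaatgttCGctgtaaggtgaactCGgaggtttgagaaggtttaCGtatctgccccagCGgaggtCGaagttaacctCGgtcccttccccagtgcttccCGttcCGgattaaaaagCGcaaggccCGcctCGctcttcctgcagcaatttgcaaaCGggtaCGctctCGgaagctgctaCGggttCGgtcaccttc
EFNA5: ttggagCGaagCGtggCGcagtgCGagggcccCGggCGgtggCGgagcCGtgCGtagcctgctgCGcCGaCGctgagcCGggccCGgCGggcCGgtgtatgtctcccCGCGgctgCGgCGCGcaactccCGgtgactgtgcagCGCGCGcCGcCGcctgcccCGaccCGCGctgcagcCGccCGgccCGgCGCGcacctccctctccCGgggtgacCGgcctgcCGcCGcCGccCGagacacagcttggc
EVC held 9 CG, EVC2 24, GPAT2 2, DDX43 16, NRN1 19 and EFNA5 41. The median over the 27305 promoters of the RefSeq table was 11 with quartiles of 3 and 23, and 93.6% held at least 1. By GENCODE 44, EVC2, GPAT2 and NRN1 start further upstream than in RefSeq, so that their stretches lie within the gene as positioned there. Methylation was not measured in these samples.

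The immunoglobulin genes separated the clones. The leading heavy chain variable gene was IGHV4-59 in MEC2, at 315, 373 and 238 CPM and 95.7% to 97.4% of all IGHV counts. In PCL12 it was IGHV3-30, at 1109, 436 and 616 CPM and 98.8%, 83.6% and 87.3% of IGHV counts. IGHV4-59 was the next gene in PCL12 replicates 2 and 3, at 73.3 and 80.7 CPM, and not in replicate 1. The leading kappa gene was IGKV4-1 in all 6 libraries. Of 12 constant region genes and partners measured, 0 were higher in MEC2 and 4 were higher in PCL12, with a median log2FC of -0.84 beside 0.01 over all genes, and 33.3% called beside 4.28% of all 13695 genes in either direction. IGHA1 (chr14:105703995-105708665, minus strand), a constant gene of IgA, had 1.83, 2.12 and 0.627 CPM in MEC2 and 316, 158 and 129 CPM in PCL12 (log2FC -7.05 ± 0.88, adjusted p = 0.000496). IGHA2 had a log2FC of -7.98, and of -8.69 against replicate 1. The sequence it shares with IGHA1 leaves the split of reads between them uncertain. IGLL5 and IGLC2, which share lambda constant sequence, had log2FC of -6.29 and -6.11 from levels of at most 19.7 and 5.26 CPM. Against replicate 1, 4 were higher in PCL12 and 3 in MEC2, namely IGHG1, IGHG4 and IGHE (adjusted p = 0.0128, 0.0105 and 0.0082), beside 2.83% and 2.47% of all genes. IGHE, the constant gene of IgE, had 9.31, 11.1 and 15.1 CPM in MEC2, 0 reads in PCL12 replicate 1 and 9.81 and 9.82 CPM in replicates 2 and 3. IGHG1 had 16.6, 18.7 and 23.9 CPM in MEC2, 3 counts in PCL12 replicate 1 and 6.67 and 11.6 CPM in replicates 2 and 3. The 3 genes were picked after their values were seen, and IgG constant genes are near-identical. IGHM, the constant gene of IgM, was not called, at 5072, 5551 and 4126 CPM in MEC2 and 12565, 6171 and 8268 CPM in PCL12 (log2FC -0.87, adjusted p = 0.410).

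Of 36 B-cell surface antigens, 1 was called higher in each line, which is 5.56% beside the 4.28% over all genes, with a median log2FC of -0.14. Against replicate 1, 3 were higher in MEC2, CD72 and, picked after their values were seen, CD1C and CD84 (adjusted p = 0.0143 and 0.00111), and 1 was higher in PCL12, beside 2.47% and 2.83% of all genes. CD72, a receptor that restrains B-cell receptor signals, was at 24.7, 17.1 and 13.9 CPM in MEC2 and at 2.53, 7.27 and 5.97 CPM in PCL12 (log2FC 1.82, adjusted p = 0.0222). TNFRSF13B, the receptor TACI for BAFF and APRIL, was at 63.3, 51.2 and 75.7 CPM against 175, 126 and 138 CPM (log2FC -1.21, adjusted p = 0.0219). Neither gene overlapped between the lines. Among antigens used to describe CLL, no call was made by the 3 libraries. MS4A1, which encodes CD20, had a log2FC of 0.70 (adjusted p = 0.308) and FCER2, which encodes CD23, -0.45 (adjusted p = 0.665). CD5, whose mean over the 6 libraries lay under the 1 CPM minimum of the 13695 genes, was at most 0.0570 CPM in MEC2 and at 1.35, 1.25 and 0.0929 CPM in PCL12 (log2FC -4.65 ± 1.27, adjusted p = 0.0904), beside 24.1, 40.5 and 69.6 CPM in HG3. CD5 was called higher in PCL12 by DESeq2, with the filterByExpr filter or no filter, and without PCL12 replicate 3. Its adjusted p ranged from 0.00657 (without PCL12 replicate 3) to 0.327 (without PCL12 replicate 1) with 1 library left out, and from 1.59e-11 (no filter) to 0.24 (limma-voom) under the other alternatives.

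Of 32 genes of B-cell receptor signalling, 2 were higher in each line, 12.5% in all beside the 4.28% over all genes, and the median log2FC was 0.02. ZAP70, a tyrosine kinase of T cells whose expression in CLL is a prognostic marker, was at 13.4, 11.8 and 5.24 CPM in MEC2 and at 103, 61.6 and 58.2 CPM in PCL12 (log2FC -2.87 ± 0.43, adjusted p = 0.000404). VAV3, a guanine nucleotide exchange factor, was at 0.688, 0.367 and 0.598 CPM against 6.25, 3.85 and 5.32 CPM (log2FC -3.21, adjusted p = 0.00254). Both were above in every PCL12 library. NFATC1, a calcineurin-dependent transcription factor, went the other way, at 94.7, 93.6 and 52.0 CPM in MEC2 and 16.4, 23.5 and 22.4 CPM in PCL12 (log2FC 1.95, adjusted p = 0.00126). Of 22 CLL prognostic and EBV-associated genes, 3 were higher in PCL12 and 0 in MEC2 by the 3 libraries (median log2FC -0.43): ZAP70, LEF1 and CCL22. The share is 13.6% beside the 4.28% over all genes. Of the 22, 7 were above 0, and 5 against replicate 1. Among them was ITGA4, picked after its values were seen (log2FC 1.30, and 2.77 against replicate 1). LEF1, a factor of Wnt signalling, was at 1.00, 0.694 and 0.484 CPM in MEC2 and at 10.8, 5.81 and 3.18 CPM in PCL12 (log2FC -3.17, adjusted p = 0.00677). It was the 1 gene called by the 3 libraries among 30 B-cell transcription factors, which is 3.33% beside the 4.28% over all genes. Against replicate 1, 18 of the 30 were above 0, among them RUNX1 (log2FC 5.24), which is described below.

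Of 30 chemokines and cytokines, 2 were higher in MEC2 and 3 in PCL12, which is 16.7% beside the 4.28% over all genes (median log2FC 0.13). Against replicate 1, 4 were higher in MEC2 and 3 in PCL12, beside 2.47% and 2.83% of all genes. The genes called there only, picked after their values were seen, were CCL28, IL7 and TNFSF10 towards MEC2 (adjusted p = 0.00894, 0.00183 and 0.0373) and IL16 towards PCL12 (adjusted p = 0.0354). CCL22, a chemokine that draws CCR4-bearing T cells, was at 236, 259 and 326 CPM in MEC2 and at 1147, 1128 and 749.6 CPM in PCL12 (log2FC -1.88 ± 0.33, adjusted p = 0.00114). TNFSF4, the ligand OX40L, was at 2.18, 4.61 and 6.89 CPM against 31.3, 66.3 and 46.7 CPM (log2FC -3.40, adjusted p = 0.000791). CXCL10, an interferon-induced chemokine, was at 0.201, 0.572 and 2.74 CPM against 28.4, 21.5 and 30.3 CPM (log2FC -4.49, adjusted p = 0.0487), and it missed the threshold against PCL12 replicate 1 (adjusted p = 0.125). CCL5, a chemokine for T cells, went towards MEC2 with TNF (log2FC 1.19, adjusted p = 0.0424), and its adjusted p against replicate 1 was 0.0576. IL6, also outside the 13695 genes, had 0 counts in all 6 libraries, below the floor of 0.0696 to 0.122 CPM that 3 counts correspond to.

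Of 36 receptors for such signals, 1 was higher in MEC2 and 3 were higher in PCL12, which is 11.1% beside the 4.28% over all genes (median log2FC -0.10). Against replicate 1, 2 were higher in each line, beside 2.47% of all genes in MEC2 and 2.83% in PCL12, those towards MEC2 being S1PR1 and TNFRSF10A, picked after their values were seen (adjusted p = 0.000337 and 0.0468). IL2RA, the alpha chain CD25 of the IL-2 receptor, was at 2.35, 2.57 and 1.37 CPM in MEC2 and at 54.2, 40.5 and 30.9 CPM in PCL12 (log2FC -4.32 ± 0.47, adjusted p = 2.33e-06). TNFRSF4, the receptor OX40, was at 4.10, 4.04 and 0.855 CPM against 18.8, 27.8 and 6.52 CPM (log2FC -2.56, adjusted p = 0.032). With TNFSF4, both OX40 and its ligand were thus called higher in PCL12, although TNFRSF4 was not called against replicate 1 (adjusted p = 0.137). TNFRSF1A, a TNF receptor, had a log2FC of -1.58 (adjusted p = 0.0149), and S1PR4, a sphingosine-1-phosphate receptor, 1.62 (adjusted p = 0.00454, and 0.0519 against replicate 1).

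Of 32 adhesion molecules, 1 was higher in MEC2 and 5 were higher in PCL12, which is 18.8% beside the 4.28% over all genes, and 22 had a log2FC under 0 (median -0.44), beside 6712 of all 13695 genes. ITGB1, the shared beta chain of the VLA integrins, was at 19.6, 18.7 and 18.7 CPM in MEC2 and at 75.5, 62.3 and 61.3 CPM in PCL12 (log2FC -1.80 ± 0.33, adjusted p = 0.00154). ITGB7, the beta chain of the gut-homing integrin, was at 325, 288 and 406 CPM against 839, 550 and 700 CPM (log2FC -1.04, adjusted p = 0.0284). PCDH9, a protocadherin, and ITGA3, an integrin alpha chain, had log2FC of -2.44 and -1.26, and ITGA3 was not called against replicate 1 (adjusted p = 0.0942). ITGB8, another integrin beta chain, went towards MEC2, at 12.9, 13.8 and 4.99 CPM against 1.80, 2.07 and 3.18 CPM (log2FC 2.16, adjusted p = 0.00235). Libraries of the lines did not overlap in these genes. ITGA4, the partner CD49d of ITGB1, was not selected by the rule for named genes, was picked after its values were seen and was called against PCL12 replicate 1 only. It was at 174, 126 and 160 CPM in MEC2 and at 22.5, 57.3 and 106 CPM in PCL12 (log2FC 1.30 with adjusted p = 0.410, and 2.77 with adjusted p = 0.00434 against replicate 1).

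Of the 30 genes of MHC class I and II and their processing, 4 were higher in MEC2 and 0 in PCL12, which is 13.3% beside the 4.28% over all genes, and 24 had a log2FC over 0 (median 0.59), beside 6983 of all 13695 genes. HLA-DRB5, a class II beta chain, was at 208, 183 and 184 CPM in MEC2 and at 61.6, 96.2 and 74.6 CPM in PCL12 (log2FC 1.30, adjusted p = 0.0103). HLA-C was at 1023.5, 958 and 664 CPM against 397, 540 and 364 CPM (log2FC 1.02, adjusted p = 0.0406). HLA-G and PSMB9, an immunoproteasome subunit, had log2FC of 1.43 and 1.12. HLA genes are near-identical and vary between donors, so reads can be assigned to the wrong gene and the alleles of a line can change how many align, and HLA-DRB5 in particular is present on some haplotypes only. Against PCL12 replicate 1, HLA-DRB5 was the 1 called gene of the 30, beside 2.47% of all genes higher in MEC2, and all 30 genes except B2M, PSMB10, NLRC5, CIITA, RFX5, RFXAP, RFXANK and CTSS lie on chromosome 6, whose protein-coding genes had a median log2FC of 0.53.

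Few interferon-stimulated genes were called, and most of them lay above 0. Of 50, 1 was higher in MEC2 and 0 in PCL12, which is 2% beside the 4.28% over all genes, with a median log2FC of 0.41, and 39 were above 0, beside 6983 of all 13695 genes. Against PCL12 replicate 1, 3 were called higher in MEC2, beside 2.47% of all genes, the median was 0.66 and 45 were above 0, beside 7269 of all 13695 genes. CMPK2, a nucleotide kinase, was at 11.6, 11.5 and 14.5 CPM in MEC2 and at 0.160, 2.92 and 2.02 CPM in PCL12 (log2FC 2.88, adjusted p = 0.0387). The other two, IFI44 and IFI44L, were called against replicate 1 only and are named after their values were seen. IFI44L was at 337, 275 and 444 CPM in MEC2, 13.4 CPM in PCL12 replicate 1 and 206 and 109 CPM in replicates 2 and 3 (log2FC 1.68 with adjusted p = 0.499, and 4.72 with adjusted p = 6.09e-06). IFI44L and IFI44 belong to the 48 genes that were used to show MEC2 transcripts in PCL12 replicates 2 and 3. So do TBX21, CD28, CD84 and others named here.

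Of 23 genes of the Toll-like receptor pathway, 1 was called by the 3 libraries, higher in PCL12, which is 4.35% beside the 4.28% over all genes (median log2FC 0.31). Against replicate 1 the median was 0.17, and 15 of the 23 were above 0, beside 7269 of all 13695 genes. IRAK3, chosen above for its low level in replicate 1, had a log2FC of 8.05 against it, and IRF5 had -1.79. IRF5, the interferon regulatory factor downstream of TLR7 and TLR9, was at 112, 104 and 100 CPM in MEC2 and at 364, 309 and 264 CPM in PCL12 (log2FC -1.57 ± 0.26, adjusted p = 0.000695). Of 35 NF-κB subunits and regulators, 2 were higher in PCL12 and 0 in MEC2, which is 5.71% (median -0.10). BIRC2, a ubiquitin ligase of the NF-κB pathway, was at 31.0, 19.8 and 19.9 CPM against 53.1, 55.1 and 47.0 CPM (log2FC -1.13, adjusted p = 0.0252), and TNIP3, an inhibitor of NF-κB activation, had a log2FC of -3.07 from levels of at most 4.83 CPM. Neither was called against replicate 1. NFKBIZ, which encodes the nuclear IκBζ that TLR signals induce, was at 36.7, 24.2 and 24.5 CPM in MEC2 and at 37.9, 60.4 and 37.4 CPM in PCL12. Its log2FC was -0.67 ± 0.32 (adjusted p = 0.444), and -0.41 against replicate 1 (adjusted p = 0.826), so no difference in its unstimulated level was detected.

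Most cell cycle genes lay slightly above 0. Of 36 G2/M and mitosis genes 34 had a log2FC over 0, also against replicate 1, with a median of 0.54, beside 6983 of all 13695 genes, and 2 were called, which is 5.56% beside the 4.28% over all genes. NUSAP1 and PRC1, both of the mitotic spindle, had log2FC of 1.06 and 1.02 (adjusted p = 0.0172 and 0.0276), and neither was called against replicate 1. Of 44 replication and G1/S genes, 1 was higher in each line (median 0.24), which is 4.55% in all beside the 4.28% over all genes. CDKN2C, the CDK4/6 inhibitor p18, was at 76.0, 72.0 and 89.5 CPM in MEC2 and at 13.0, 19.6 and 39.4 CPM in PCL12 (log2FC 1.72, adjusted p = 0.0416). CCND2, cyclin D2, was at 58.1, 51.2 and 127 CPM against 331, 250 and 279 CPM (log2FC -1.86, adjusted p = 0.000992). The growth rate and density of the cultures were not measured here.

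CDKN1A, the CDK inhibitor p21, was at 114, 128 and 43.8 CPM in MEC2 and at 30.3, 37.0 and 21.1 CPM in PCL12 (log2FC 1.69, adjusted p = 0.0231), with MEC2 replicate 3 near the PCL12 libraries and no call against replicate 1 (adjusted p = 0.322). GADD45A, a stress-induced growth arrest gene, was higher in PCL12, at 6.36, 7.31 and 3.62 CPM against 26.1, 22.6 and 9.19 CPM (log2FC -1.75, adjusted p = 0.0205). The groups did not overlap in either gene. Of 29 glycolysis and hypoxia genes, 0 were called by edgeR, beside 4.28% of all genes (median 0.15).

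Homeobox genes, many of which are developmental factors, gave 1 call towards MEC2 and 2 towards PCL12 among 18, which is 16.7% beside the 4.28% over all genes (median -0.19). HHEX, a haematopoietic homeobox factor, was at 7.39, 9.59 and 3.39 CPM in MEC2 and at 105, 45.1 and 40.5 CPM in PCL12 (log2FC -3.23 ± 0.40, adjusted p = 1.36e-05). MEIS2 was at 31.8, 33.4 and 23.2 CPM against 2.37, 5.67 and 8.43 CPM (log2FC 2.42, adjusted p = 0.0416), and SIX5 had a log2FC of -1.23, with no call against replicate 1 (adjusted p = 0.065). PCL12 replicate 1 was the most distant from MEC2 for HHEX and MEIS2. RUNX1, the RUNX family member of blood formation and chosen after its values were seen, was at 88.2, 91.7 and 53.2 CPM in MEC2 and at 2.05, 20.9 and 29.3 CPM in PCL12, the reverse of RUNX2 (log2FC 2.16 with adjusted p = 0.327, and 5.24 with adjusted p = 3.05e-06 against replicate 1). Among 10 measured markers of other cell types, SDC1, the plasma cell antigen CD138, was the 1 called gene, which is 10% beside the 4.28% over all genes. It was at 16.5, 20.1 and 24.6 CPM in MEC2 and 7.44, 7.52 and 5.83 CPM in PCL12 (log2FC 1.56, adjusted p = 0.0225), while the sum of the 3 plasma cell markers was higher in PCL12. SDC1 was not called against replicate 1 (adjusted p = 0.297).

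**Figure D4:**
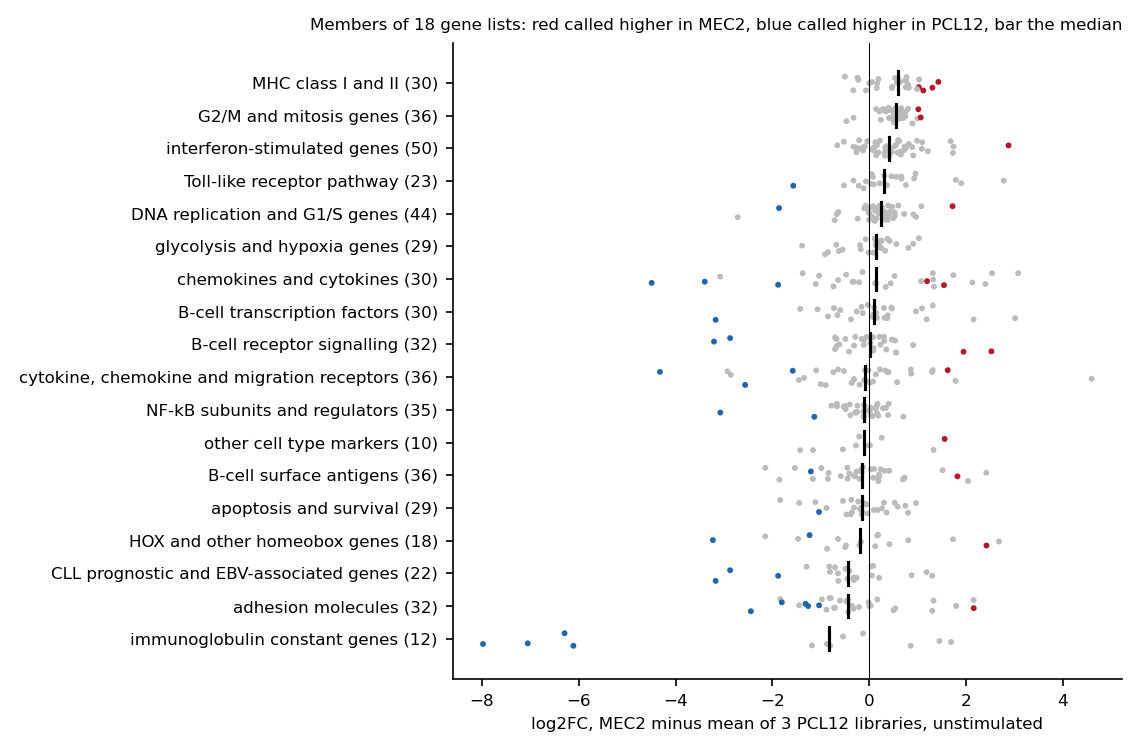
log2FC of the members of 18 gene lists, MEC2 minus the mean of the 3 PCL12 libraries; 1 dot is 1 gene, the number of measured members stands beside each list, and bars are medians. The MHC and G2/M lists have medians of 0.59 and 0.54, and the immunoglobulin constant genes a median of -0.84 with 4 genes called in PCL12.

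The difference between the lines also followed position. The 600 protein-coding genes of chromosome 6 had a median log2FC of 0.53, against 0.67 for PCL12 replicate 1, and 493 of them were above 0, beside a share of 51.2% over all 11204 protein-coding autosomal genes. On chromosome 6, 25 genes were called higher in MEC2 and 11 in PCL12, or 36 and 10 against replicate 1, beside 140 and 376 of all 11204 genes, or 269 and 329 against replicate 1. The 203 genes of chromosome 17 that start before 22 Mb, a boundary set after their values were seen, had a median of -0.75, and of -0.90 against replicate 1. Only 14 of these 203 genes were above 0, and 34 were called higher in PCL12 and 0 in MEC2, or 37 and 4 against replicate 1. The 527 genes further along chromosome 17 had a median of -0.07, with 9 called higher in MEC2 and 16 in PCL12. The first stretch holds ATP2A3, a calcium pump of the endoplasmic reticulum (log2FC -1.90, adjusted p = 9.57e-05), and 4 neighbours called together, NLGN2, TMEM102, CHRNB1 and ZBTB4 (log2FC -1.84, -1.34, -1.91 and -1.33). In the CpG-stimulated libraries, which share no sample with these, the median was 0.55 for chromosome 6 and -0.72 for the first 22 Mb of chromosome 17, and 0.66 and -0.83 against PCL12 replicate 1. DNA was not measured, so a copy number cannot be read from these values.

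In sliding windows of 40 neighbouring protein-coding genes, 10346 in all, the lowest median against replicate 1 was -1.02, on chromosome 17 from KIAA0753 to TRAPPC1 (chr17:6578147-7932123), where 2 of 40 genes were above 0. The highest was 1.26, on chromosome 6 from FBXO5 to PHF10 (chr6:152970519-169725566), where 36 of 40 were above 0. The central 95% of the windows lay between -0.53 and 0.78. A further high window lay on chromosome 19 from SUGP1 to CCNE1 (chr19:19276018-29824312), with a median of 1.17 against replicate 1 and of 0.66 against the 3 libraries. It is rich in zinc finger genes of the KRAB type, a family of repressors. Genes of the whole chromosome whose symbol is ZNF and a number were then read as a group chosen after their values were seen. Whether each has a KRAB domain was not checked. The 192 ZNF genes of chromosome 19 had a median log2FC of 0.39 and of 0.72 against replicate 1, with 4 called higher in MEC2 and 1 in PCL12, and 24 and 1 against replicate 1, beside 1.09% and 3.19% of all 13695 genes, and 2.47% and 2.83% against replicate 1. In PCL12 replicate 1, 18 of them were at or under 0.5 CPM, and 1 was so in all 3 MEC2 libraries. The 188 ZNF genes of other chromosomes had medians of 0.07 and 0.14, with 3 and 4 called, and 6 and 4 against replicate 1. The other 685 genes of chromosome 19 had medians of -0.02 and -0.09, with 8 and 21 called, and 6 and 22 against replicate 1.

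**Figure D5:**
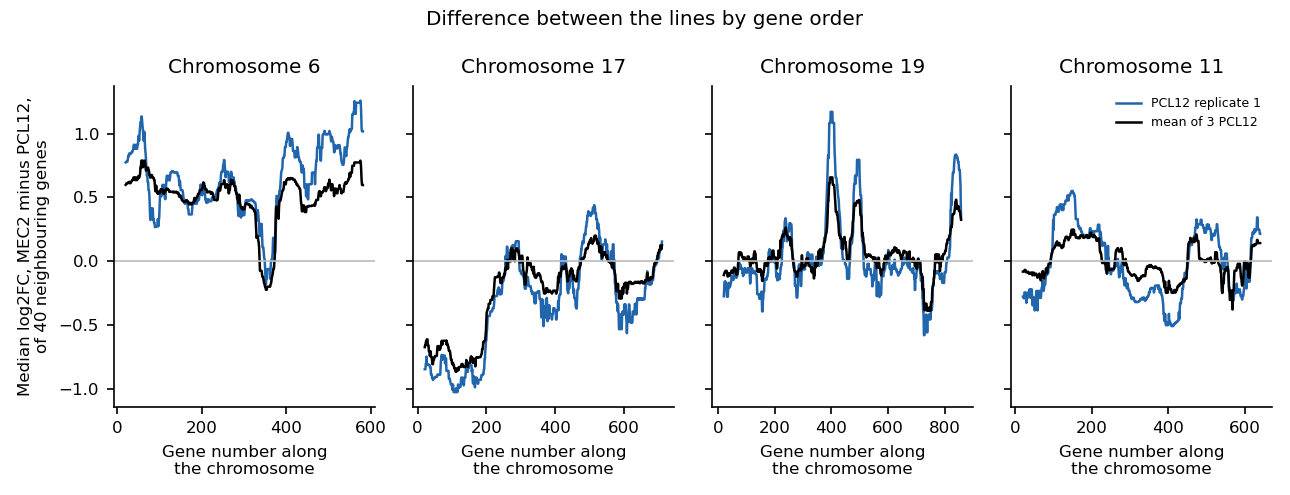
Median log2FC, MEC2 minus PCL12, of 40 neighbouring protein-coding genes along chromosomes 6, 17, 19 and 11, by gene number; black is against the mean of the 3 PCL12 libraries and blue against PCL12 replicate 1. Chromosome 6 lies above 0 over most of its length, the genes of chromosome 17 before 22 Mb have a median of -0.90 against replicate 1, and chromosome 19 holds narrow peaks.

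On a smaller scale, called genes stood next to each other. Of the genes higher in PCL12, 61 lay in 27 runs of neighbours called in the same direction, and of those higher in MEC2, 10 lay in 5 runs. Against PCL12 replicate 1 the counts were 48 genes in 21 runs towards PCL12 and 56 genes in 27 runs towards MEC2. How many runs gene order alone would give was not tested. The runs towards PCL12 included EVC2 and EVC, RUNX2 and CLIC5, CCL22 and CX3CL1, and the apolipoprotein genes APOL3, APOL2 and APOL1. APOL2 was at 25.04, 19.6 and 28.1 CPM in MEC2 and at 68.9, 51.6 and 55.0 CPM in PCL12 (log2FC -1.27, adjusted p = 0.00697), and APOL3 had a log2FC of -1.08 (adjusted p = 0.0214). The apolipoprotein L genes are similar in sequence, so reads may be shared among them. APOBEC3F and APOBEC3G, cytidine deaminases that restrict viruses, were another such pair (log2FC -1.68 and -1.15). Towards MEC2, TBKBP1 stood beside TBX21 (log2FC 2.00, adjusted p = 0.0041) and GNA15, a G protein subunit, beside S1PR4 (log2FC 2.88, adjusted p = 0.012).

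After 4 h of CpG, 179 genes were higher in MEC2 (1.31%) and 377 in PCL12 (2.75%). All 149 and all 437 genes called without stimulation had the same sign after it, and 105 and 317 were called again. The change of the line difference with CpG was called in 0 of 31872 genes (0%) by edgeR, and 1028 genes (3.23%) had an unadjusted p under 0.05. DESeq2 and limma-voom called 0 as well.

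HG3 was used to see on which side a difference fell. By the log2 CPM plus 0.5, HG3 was nearer to MEC2 than to PCL12 replicate 1 in 93 of the 149 genes higher in MEC2 (62.4%) and in 244 of the 437 genes higher in PCL12 (55.8%), beside 52.4% of all 13695 genes. The genes were called against the 3 PCL12 libraries, while nearness was measured to replicate 1. HG3 shared the high level of PCL12 for PITPNC1, at 74.997, 48.7 and 58.8 CPM, and for CCND2, at 377, 549 and 410 CPM. It shared the low level of MEC2 for CX3CL1, at 0.879, 1.24 and 0.974 CPM, and for HHEX, at 10.3, 7.17 and 7.79 CPM. PLD1 was higher in HG3, at 126, 73.6 and 170 CPM, than in either line compared here.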

How the data were processed

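Total RNA of HG3, MEC2 and PCL12 cells was sequenced with 3 unstimulated and 3 CpG-stimulated libraries per line. Per the labels and the submitters' processing notes, reads were trimmed with Trimmomatic, aligned to hg38 with STAR and counted per gene with featureCounts, with FastQC and MultiQC as quality checks, and versions and the annotation are not given in the sources used here. The study's methods describe a stranded library, and RNA kits named in the methods and in the labels differ. The authors deposited 1 table of raw counts of 56609 gene symbols in 18 libraries, without normalization, and all columns were assigned through the labels. Whether PCR copies were removed is not given, so counting intervals and floors cover counting error only.

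Genes with at least 10 counts over the 18 libraries were fitted in edgeR 4.0.16 (R 4.3.3) with TMM scaling, 1 mean for each of 6 groups and the robust option of the quasi-likelihood test (12 residual degrees of freedom), and P values were adjusted by Benjamini-Hochberg over all 31872 genes. A gene was called at an adjusted p under 0.05 and |log2FC| ≥ 1. SE is the log2FC divided by the root of the F statistic. Against PCL12 replicate 1, the same fit kept the PCL12 libraries of replicate 1 apart (10 residual degrees of freedom), so that the lone library was assumed to vary like the others. CPM values use TMM-scaled totals, and figures use Python 3.11.15. The fit was tested on simulated counts. Positions are those of GENCODE 44 on GRCh38 (36615 symbols matched, 1194 through an older symbol), and promoter sequences are from RefSeq, GRCh38.p14.

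The genes and the gene lists were chosen with earlier results of these data known. Named genes were, without X, Y and immunoglobulin variable genes, the 12 smallest P values in each direction among called genes without overlap between libraries, up to 8 in each direction silent in the other line, up to 4 called members of each list in each direction, and NFKBIZ, IL6, CD5, FCER2 and MS4A1, and a few that this selects are not reported here. The report says where a gene was added after its values were seen. Euclidean distances and the comparison of replicate deviations used log2 CPM with a prior count of 2. Alternatives were RLE scaling, library totals, DESeq2 1.42.0, limma-voom 3.58.1, other filters and thresholds, the 6 libraries alone, a replicate block and each library left out. Genes at the edge of the 1 CPM minimum were DDX50P1 at 1.0004 CPM inside and ABCC3 at 0.99989 CPM outside.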

Additional observations from a re-analysis of the deposited data

How the results depend on the processing

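Counts are given as genes higher in MEC2 and in PCL12, 149 and 437 unstimulated and 179 and 377 after CpG. DESeq2 called 353 and 689 unstimulated and 425 and 663 after CpG, no filter on low counts 447 and 688, and 545 and 635, a nominal P value under 0.01 with |log2FC| ≥ 1 341 and 684, and 419 and 648. Limma-voom called 224 and 371 in MEC2, unstimulated and after CpG. Against PCL12 replicate 1, edgeR called 338 and 290 in MEC2, DESeq2 734 and 659, and limma-voom 311 and 475, with 644 in PCL12 after CpG by limma-voom. The last 2 tools with replicate 1 alone were chosen after seeing the data. DESeq2 with replicate 1 alone called more genes in MEC2 than in PCL12, unstimulated and after CpG, the reverse of the main counts. EdgeR and limma-voom with replicate 1 alone called more genes in PCL12 than in MEC2 in both conditions, as in the main counts. Fitting only genes with a mean of 1 CPM gave 272, and the 6 libraries alone 285, in MEC2 after CpG. Leaving out 1 library gave 51 to 178 in MEC2 and 244 to 430 in PCL12 unstimulated, and 43 to 240 and 219 to 372 after CpG. The lowest counts were those without PCL12 replicate 1 (51 and 244 unstimulated, 43 and 219 after CpG), and unstimulated counts moved by over 1.5 times also without MEC2 replicate 1 (71 and 250), without MEC2 replicate 2 (66 and 271) and, in MEC2 only, without PCL12 replicate 2 (99). After CpG the MEC2 count did so without MEC2 replicate 1 (108) and MEC2 replicate 2 (83). The change of the line difference with CpG was called in 3 genes without a filter (FN1, LINC00839 and KRT17, named after the fact) and in 0 by edgeR, DESeq2, limma-voom, RLE size factors, the replicate block and each left-out library, and was not run under the other alternatives. The median of the MEC2 genes in PCL12 replicate 2 was 28.2% with a 10 CPM minimum and 27.6% with a 5% limit. The cause of these changes was not tested.

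The labels do not say whether equal replicate numbers mark paired samples, and no pairing was assumed. Deviations from the group means correlated at 0.12, 0.03 and 0.41 between same-numbered MEC2 and PCL12 libraries. Between libraries of unlike number the values ran from -0.35 to 0.26. These values do not settle whether same-numbered libraries were paired. With the replicate block the counts were 200 and 472 unstimulated and 226 and 445 after CpG, with 0 genes for the change with CpG. The 72 named genes that were called kept their direction under every alternative, and 37 of them stayed called under all. With 1 library left out, 24 missed the threshold without PCL12 replicate 1, 22 without MEC2 replicate 1, 19 without MEC2 replicate 2 and 11 to 13 without each of the others. Among them were BIRC2, CCL5, CD72, CDKN1A, CDKN2C, CMPK2, CXCL10, GADD45A, HLA-C, HLA-DRB5, HLA-G, ITGA3, ITGB7, LEF1, MEIS2, NUSAP1, PRC1, PSMB9, SDC1, SIX5, TNFRSF13B, TNFRSF1A, TNFRSF4 and TNIP3, all of them members of the lists. Depth limits genes near the floor of 0.0696 to 0.122 CPM.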
